A study of Chlorocebus sabaeus with 4 samples.

Results

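Heat shock and chaperone genes were examined in corpora lutea, the progesterone-secreting glands left after ovulation, of 2 adult female vervet monkeys (Chlorocebus sabaeus), both 16 years old. The members were the genes of the HSPA, HSPB, HSP90A, DNAJA, DNAJB, DNAJC and CCT families, BAG1 to BAG6, HSPD1, HSPE1, HSPH1 and TCP1, chosen by symbol. Of 86 measured symbols that matched, the stress genes of the endoplasmic reticulum (ER) HSPA5, DNAJB9, DNAJB11 and DNAJC3 were left out by the rule, which gave 82 members of 19775 genes. Of these, 77 encode proteins and 5 are non-coding RNAs with a member's name in their symbol (DNAJB8-AS1, DNAJC27-AS1, DNAJC3-DT, DNAJC9-AS1 and HSPA2-AS1). The label of the group is cytosolic, but the rule also takes in chaperones of mitochondria and some of the ER. HSPA1A, HSPA1B, HSPA8, TCP1 and DNAJC25 could not be counted, because every probe set for them was annotated to more than 1 gene. The main heat-inducible HSP70 genes and the main constitutive one therefore have no value of their own here.

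Ad libitum feeding was given to monkey 1030 and calorie restriction to monkey 1031, and each gave 2 luteal samples, compared within the animal to follow weight change. Which sample was collected first is not stated, so a change is always sample 2 minus sample 1, on the log2 scale of the deposited signals. Where a gene is given with a pair of changes, that of the ad libitum animal comes first. Each change rests on 1 array per sample and has no test, and "2-fold" and "1.5-fold" are rules of size. Each diet was given to a single animal, so diet and animal cannot be told apart. A gene was read from its probe set with the highest mean signal, and 56 members, all protein coding, lay at or above a level filter of 5.26, the median of all genes' means, as did 9888 genes in all. Of the 26 members below it, 5 were the non-coding RNAs.

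Sample 2 of the ad libitum animal was the most distinct array: 912 to 1031 genes were 2-fold apart between it and another array, and 122 to 333 between any pair of the other 3. The arrays also differed in their bacterial hybridisation controls, which do not come from the tissue. Mean log2 signals of these controls were 10.58 and 9.85 for the ad libitum pair and 10.09 and 10.54 for the calorie restriction pair. All 8 luteal steroidogenic markers examined lay past the level filter, and their mean log2 signal was 11.50 and 8.11 for the ad libitum pair and 9.66 and 10.56 for the calorie restriction pair. All 8 were 2-fold lower in the ad libitum sample 2, and 4 of 8 were 2-fold higher in the calorie restriction sample 2. Oocyte markers (7 measured, 3 past the filter) had a mean of 5.86 in the ad libitum sample 2 and 4.20 to 4.37 in the others. In the ad libitum animal ZAR1 (3.70), ZP4 (3.64) and FIGLA (1.85) changed most. ZP1, ZP2 and GDF9 gave 0.44 to 0.59, and BMP15 was lower (-0.21). ZP4 and ZAR1 passed the filter only through the ad libitum sample 2, with signals of 8.30 and 8.12 there. Of 4 theca and interstitial markers, 3 were 2-fold higher in the ad libitum sample 2 and 2 were 2-fold lower in the calorie restriction sample 2, among them the androgen-synthesis enzyme CYP17A1 (1.19 and -3.26). The remaining marker, CYB5A, had the opposite signs (-0.42 and 0.20). With probe sets averaged, CYP17A1 (0.62) and TCF21 (0.575) fell short of 2-fold in the ad libitum animal, while INSL3 (2.45) did not. Of 7 macrophage markers, 2 were 2-fold higher and 1 was 2-fold lower in the ad libitum sample 2. Endothelial markers (8, all past the filter) averaged 7.81 and 6.82 in the ad libitum pair and 8.46 and 8.06 in the other. Of 15 immediate early genes, which respond to handling among other stimuli, 12 were lower in the ad libitum sample 2 and all 15 in the calorie restriction sample 2. The part of these shifts in the chaperone values below was not tested, and in bulk tissue fewer cells of a type and less RNA per cell cannot be told apart.

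Chaperones bind unfolded stretches of protein and help them fold, assemble or reach the proteasome. HSP70 proteins (HSPA) do so in cycles of ATP, which J proteins (DNAJ) start by delivering the client and stimulating ATP hydrolysis, and which HSP110 and several BAG proteins end by exchanging the nucleotide. HSP90 takes partly folded clients such as steroid hormone receptors, the ring-shaped TRiC folds actin and tubulin, HSPD1 with its lid HSPE1 works in mitochondria, and small heat shock proteins (HSPB) hold unfolding proteins without ATP. Heat shock factor 1, HSF1, raises many of these genes under stress. In steroid-making cells, mitochondrial HSP70 is part of the machinery that imports proteins of cholesterol side-chain cleavage.

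Within the ad libitum animal, more chaperone genes were lower in sample 2 than higher. Those with the largest differences were J proteins, which made up 30 of the 56 members past the filter. The 19 DNAJC members there had a median of 0.0735. Of the 56 members past the filter, 3 were 2-fold lower (5.36%), against 6.58% of all 9888 genes, and none was 2-fold higher, against 2.67%. At 1.5-fold, 8 were lower (14.3%, against 15.2%) and none higher (against 9.54%). The 8 were DNAJC1 (-2.19), DNAJC10 (-1.08), DNAJC24 (-1.06), DNAJC16 (-0.97), DNAJB5 (-0.87), HSPA4 (-0.80), DNAJB14 (-0.73) and HSPA9 (-0.68). The shares of members lower by these rules were thus near those of all genes. The change was negative in 37 of 56 members (66.1%), against 51.4% of all genes, and the median was -0.14, against -0.013. When a gene's probe sets were averaged, 1 member was 2-fold lower, DNAJC1 (-2.20), while DNAJC10 came to -0.87 and DNAJC24 to -0.12.

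Within the calorie restriction animal, no member past the filter moved 1.5-fold either way. None was 2-fold higher (against 0.496% of all genes) or 2-fold lower (0.738%), nor 1.5-fold higher (2.01%) or lower (3.93%), and members lay between -0.58 (DNAJB14) and 0.34 (DNAJC22). The median was 0.035, against -0.026, and 23 of 56 changes were negative, against 5368 of 9888. Lower signal in sample 2 with ad libitum feeding together with higher signal under calorie restriction was found in 20 of 56 members (35.7%, against 27.3% of all genes). The opposite pair of signs was found in 6 (10.7%, against 30.2%), and these signs follow sample numbers whose order is not given.

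**Figure D1:**
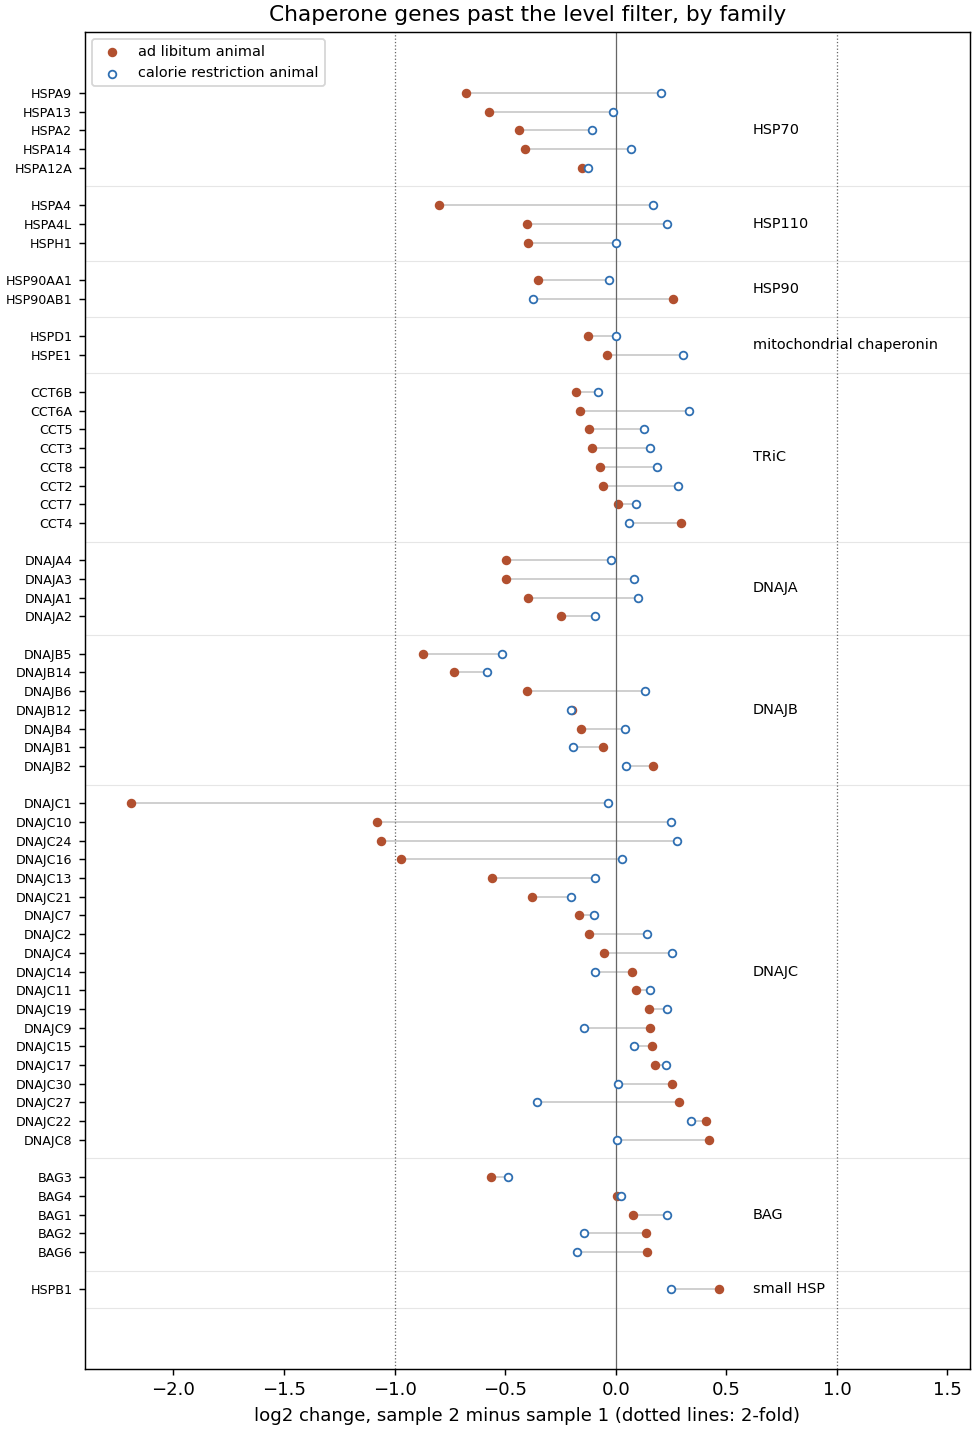
Log2 change (sample 2 minus sample 1) of each of the 56 members past the level filter, by family, with filled points for the ad libitum animal and open points for the calorie restriction animal, 1 array per sample. DNAJC1, DNAJC10 and DNAJC24 pass the dotted 2-fold line, all in the ad libitum animal, whereas TRiC subunits stay between -0.18 and 0.33 in both.

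DNAJC1, an ER membrane J protein whose J domain faces the lumen and works with the ER's HSP70, had the largest change of all members. Its log2 signal was 9.33 and 7.15 for the ad libitum pair (samples 1 and 2) and 7.87 and 7.83 for the calorie restriction pair. The ad libitum sample 1 was thus the high array and sample 2 the low one, with both calorie restriction samples between them, and the decrease was 4.56-fold. Its other 2 probe sets gave -2.22 and -2.18 in the ad libitum animal, so all 3 had about the same change. DNAJC10, an ER reductase that opens disulfide bonds of misfolded proteins, had signals of 10.45 and 9.37 (ad libitum) and 9.90 and 10.15 (calorie restriction). The same arrays were its highest and lowest, its decrease in the ad libitum animal was 2.12-fold, and a second probe set past the filter gave -1.53.

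DNAJC16, a J protein of the ER membrane, had signals of 5.78 and 4.81 (ad libitum) and 5.42 and 5.45 (calorie restriction). It just missed 2-fold in the ad libitum animal (1.96-fold lower), and its second probe set, below the filter, gave -1.01. DNAJC24, which supplies a step in making diphthamide on elongation factor 2, had signals of 5.87 and 4.81 (ad libitum) and 5.38 and 5.65 (calorie restriction). It was 2.09-fold lower in the ad libitum sample 2, but its other probe set, far below the filter, gave 0.82. DNAJC12, a cochaperone of aromatic amino acid hydroxylases, lay below the filter and was 2.15-fold lower in the ad libitum sample 2 (-1.10).

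**Figure D2:**
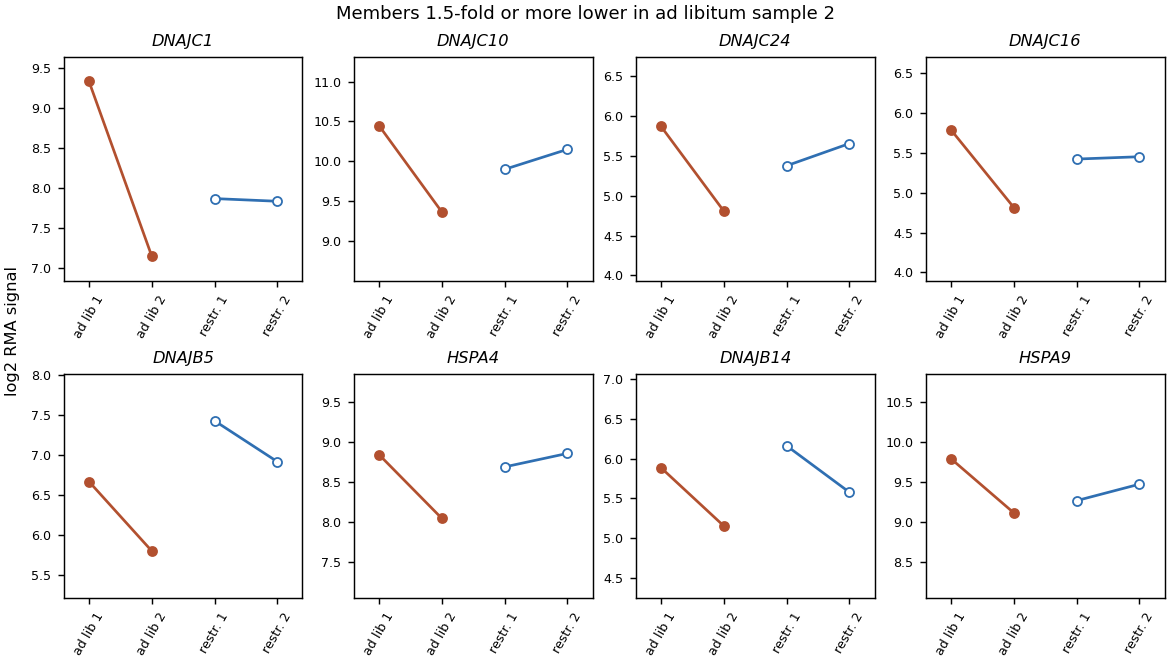
Log2 signal on each of the 4 arrays for the 8 members that were 1.5-fold or more lower in the ad libitum sample 2, with filled points for the ad libitum and open points for the calorie restriction animal; all panels span the same log2 range. In all 8 the ad libitum sample 2 is the lowest array, and the calorie restriction changes of DNAJB5 (-0.51) and DNAJB14 (-0.58) are negative as well.

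Of 7 members of the ER past the filter, 6 were lower in the ad libitum sample 2, where 51.4% of all genes were lower and their median was -0.013. This set was put together from known locations after the values had been seen, so it is a description. It held DNAJC1, DNAJC10, DNAJC16, DNAJB14, HSPA13 (-0.57), DNAJB12 (-0.20) and DNAJC14 (0.074), with a median of -0.73 with ad libitum feeding (-0.41 with probe sets averaged) and -0.034 under calorie restriction. Only the brightest of 3 probe sets for DNAJB14 lay past the filter, and their mean gave -0.21. DNAJC18, of the ER membrane and below the filter, had 0.075. HSPA13 is an HSP70 relative of the ER without a client-binding domain, and DNAJB12 and DNAJB14 are ER membrane proteins that direct misfolded proteins to degradation. The 8 mitochondrial members, HSPA9, HSPD1, HSPE1, DNAJA3, DNAJC11, DNAJC15, DNAJC19 and DNAJC30, had medians of 0.025 and 0.12, and the other 41 members past the filter -0.12 and 0.041.

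All 5 HSP70 members past the filter had lower signal in the ad libitum sample 2 than in sample 1, as had 51.4% of all genes. In the calorie restriction animal these 5 lay between -0.13 and 0.21. HSPA9, the mitochondrial HSP70 that pulls imported proteins into the matrix, had signals of 9.79 and 9.11 for the ad libitum pair (samples 1 and 2) and 9.26 and 9.47 for the calorie restriction pair. Only the ad libitum pair was 1.5-fold apart (1.6-fold), and a second probe set gave -1.01 and 0.39 in the 2 animals. HSPA14, a ribosome-associated HSP70, gave -0.41 and 0.069, although its second probe set past the filter gave 0.033 and -0.35. HSPA2, best known from male germ cells, gave -0.44 and -0.11, and HSPA12A, a distant relative, -0.15 and -0.13. Below the filter lay HSPA6, known for strict induction by stress (0.21 and -0.093), HSPA1L, known from the testis (0.36 and 0.42), and the endothelial HSPA12B (0.14 and 0.0064).

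The HSP110 members, which exchange nucleotide on HSP70, also had lower signal in the ad libitum sample 2, as had 51.4% of all genes. HSPA4 had signals of 8.84 and 8.04 (ad libitum) and 8.69 and 8.85 (calorie restriction). Its ad libitum sample 2 was the low array, 1.74-fold under sample 1, and the other 3 lay within a narrow band. Its probe sets disagreed: the brightest gave -0.80, another past the filter -1.07 and one more 0.60. HSPH1, which heat induces, gave -0.40 and 0.00056, and its second probe set -1.36 and -0.28. HSPA4L gave -0.40 and 0.23, and -0.093 and -0.0075 with its probe sets averaged.

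The cytosolic HSP90 genes did not move together. HSP90AA1, the stress-inducible form, had signals of 10.79 and 10.44 (ad libitum) and 10.64 and 10.61 (calorie restriction). HSP90AB1, the constitutive form, had 11.24 and 11.50 (ad libitum) and 11.34 and 10.97 (calorie restriction). HSP90AA1 was lower in the ad libitum sample 2 (-0.35), where HSP90AB1 was higher (0.26), and in the calorie restriction animal HSP90AB1 was lower (-0.37) and HSP90AA1 near even (-0.031). None of these reached 1.5-fold. Other probe sets past the filter kept the signs of HSP90AA1 in the ad libitum animal (-0.43 and -0.19), but for HSP90AB1 they gave 0.054 and -0.16 there and -0.28 and -0.75 in the calorie restriction animal.

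Class A J proteins, the general partners of HSP70, had negative changes in all 4 members within the ad libitum animal, as had 51.4% of all genes. They were DNAJA4 (-0.50), the mitochondrial DNAJA3 (-0.50), DNAJA1 (-0.39) and DNAJA2 (-0.25). A second probe set past the filter changed less for each: DNAJA4 gave -0.23, DNAJA3 -0.18, DNAJA1 -0.034 and DNAJA2 -0.0023. In the calorie restriction animal the brightest probe sets of the 4 lay between -0.10 and 0.10. Of class B, the heat-induced DNAJB1 was close to even in both with its brightest probe set (-0.056 and -0.19). Its other probe set, below the filter, gave -0.54 and 0.27. DNAJB2 (0.17 and 0.047) and DNAJB4 (-0.16 and 0.041) were also close to even, while DNAJB6, which holds back aggregation, gave -0.40 and 0.13. The class C members have a J domain joined to other functions. In the ad libitum animal, the 15 past the filter other than DNAJC1, DNAJC10, DNAJC16 and DNAJC24 lay between -0.56 (DNAJC13, an endosomal protein) and 0.42 (DNAJC8, of the spliceosome). Of J proteins below the filter, DNAJB13, of cilia and sperm tails, had the largest positive change in the ad libitum animal (0.72).

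Against this, the TRiC subunits differed little between samples. The 8 measured CCT genes past the filter lay between -0.18 (CCT6B) and 0.29 (CCT4) within the ad libitum animal, and between -0.081 and 0.33 (CCT6A) within the other. The medians were -0.090 and 0.14. CCT2 had signals of 10.25 and 10.19 (ad libitum) and 9.77 and 10.05 (calorie restriction), and CCT4 had 10.36 and 10.65 (ad libitum) and 10.18 and 10.24 (calorie restriction). For both, the 2 samples of each animal stayed on their own side of the other animal's. The subunits CCT3 (-0.11 and 0.16), CCT5 (-0.12 and 0.13), CCT7 (0.0089 and 0.092) and CCT8 (-0.073 and 0.19) gave similar small changes. Of the 8, 5 were lower in the ad libitum sample 2 and higher in the calorie restriction sample 2, as were 27.3% of all genes. CCT8L2, a relative below the filter, gave 0.44 and -0.23. The mitochondrial chaperonin HSPD1 gave -0.13 in the ad libitum animal and a near-even pair in the other (11.17 and 11.16). A second HSPD1 probe set past the filter changed more, by -0.59 and -0.21. HSPE1 gave -0.041 and 0.31.

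**Figure D3:**
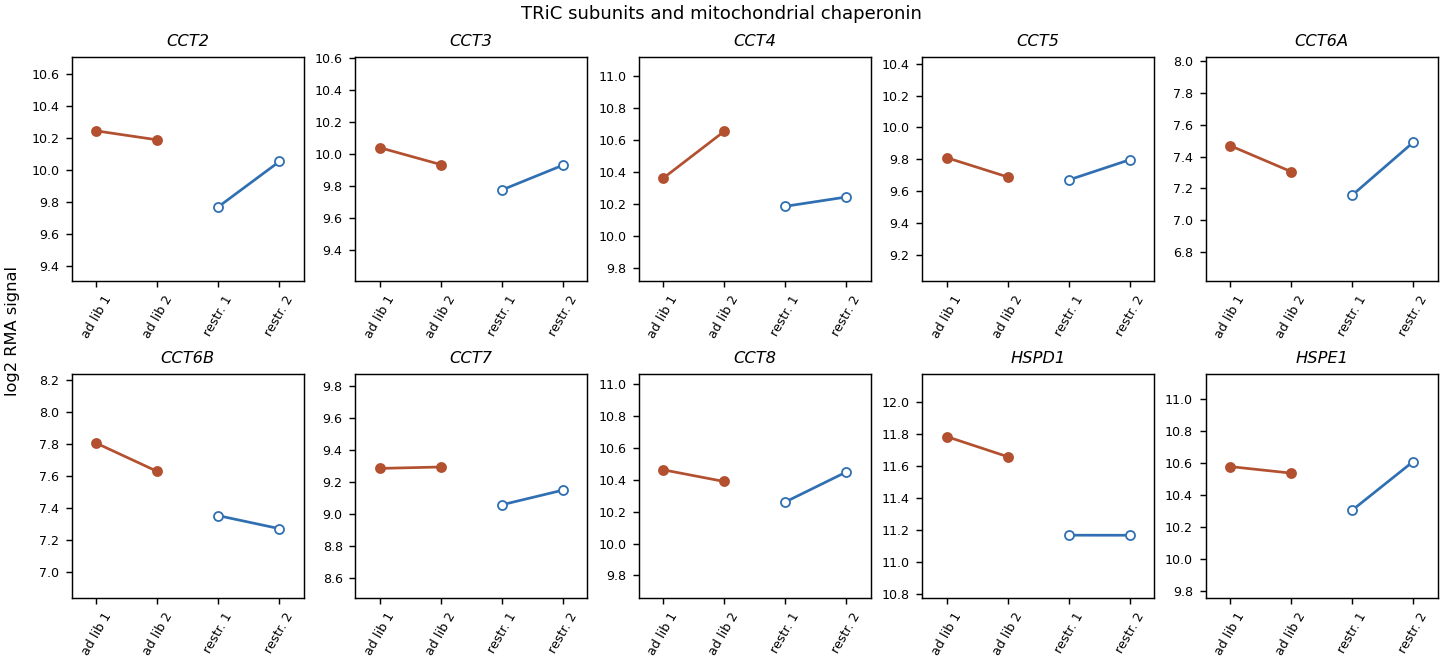
Log2 signal on each array for 8 TRiC subunits and the 2 genes of the mitochondrial chaperonin, with filled points for the ad libitum and open points for the calorie restriction animal; all panels span the same log2 range. HSPD1 has signals of 11.78 and 11.66 in the ad libitum animal and of 11.17 and 11.16 in the other, and the lines within an animal are short in all 10 panels.

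HSPB1, or HSP27, was the only small heat shock protein past the filter, and of all 56 members there it had the largest positive change in the ad libitum animal. Its signals were 10.35 and 10.81 for the ad libitum pair (samples 1 and 2) and 9.82 and 10.07 for the calorie restriction pair. Sample 2 was the higher one in each animal (0.47 and 0.25), and both ad libitum values lay above both of the other animal. HSPB2 (0.50 and 0.66), HSPB3 (-0.62 and 0.43), HSPB6 (0.20 and -0.26), HSPB7 (-0.14 and 0.030), HSPB8 (0.56 and 0.015) and HSPB9 (0.087 and 0.14) lay below the filter. HSPB2 neighbours CRYAB, another small heat shock protein gene, in the RefSeq vervet assembly mChlSab1.0.hap1, and CRYAB, past the filter, gave 0.54 and -0.28. Of 8 smooth muscle and pericyte markers, whose cells are rich in small heat shock proteins, 6 were higher in sample 2 in each animal. RGS5 (-1.2 and -0.43) and PDGFRB (-0.29 and -0.32) were lower in both. The 8 had mean log2 signals of 9.27, 9.55, 8.60 and 9.05 in the same order of arrays, and the part of these cells in HSPB1 was not tested.

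Of the BAG cochaperones, BAG3 alone was lower in both animals. BAG3, which heat shock factor 1 induces and which links HSP70 to autophagy, had signals of 5.84 and 5.27 (ad libitum) and 6.13 and 5.65 (calorie restriction), and sample 2 was the low one in each pair (-0.56 and -0.49). BAG1 (0.080 and 0.23), BAG2 (0.14 and -0.14), BAG4 (0.0074 and 0.023) and BAG6 (0.14 and -0.17) moved by less than 0.25 either way, and BAG5 (0.15 and -0.24) lay below the filter.

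Most measured genes listed here as raised by stress or by heat shock factor 1 were slightly lower in the ad libitum sample 2. HSPA1A, HSPA1B and HSPA8 are not counted among them. In the ad libitum animal, probe sets joined to HSPA1A and HSPA1B gave 0.95, -0.24 and, with HSPA1L, 0.51. Those joined to HSPA8 lay between -0.70 and -0.49. Of 14 listed stress-inducible members 11 were measured and 9 lay past the filter, with ad libitum medians of -0.35 over the 9, -0.13 over the 11 and -0.093 over the 11 with probe sets averaged. The calorie restriction median of the 9 was 0.00056, the value of HSPH1. Of the 9, 8 were lower in the ad libitum sample 2, against 51.4% of all genes, and HSPB1 was higher. With the brightest probe sets none reached 1.5-fold in either animal. Second probe sets of HSPH1 (-1.36) and HSPD1 (-0.59) did so in the ad libitum animal. Below the filter, HSPB8 (0.56) and HSPA6 (0.21) were higher there. HSF1 itself gave 0.37 and 0.017 with its brightest probe set and -0.0014 and 0.20 with its probe sets averaged, HSF4 gave 0.52 and 0.14, and HSF2 was not analysed here. Among 12 measured genes of a list of other targets (11 past the filter), 8 were lower and 4 higher in the ad libitum sample 2. Over the 11, 8 were lower (72.7%, against 51.4% of all genes). By the 2-fold rule 1 of the 11 was lower there (9.09%, against 6.58% of all genes), and none was higher. It was the heme oxygenase HMOX1 (-1.07 and -0.40). SERPINH1, the collagen chaperone, gave -0.73 and 0.043, while CRYAB gave 0.54 and -0.28.

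Few genes that work with the chaperones were 2-fold apart. Of 14 measured HSP90 cochaperones none was 2-fold apart in either animal, with medians of 0.053 and -0.026. FKBP5, which lowers the affinity of the glucocorticoid receptor for its hormone, had the largest change (-0.79 and -0.12), while CDC37 (0.49 and -0.036) and STIP1 (-0.46 and 0.37) went opposite ways in the ad libitum animal. Of 7 HSP70 cochaperones none was 2-fold apart, with ST13 (0.67 and -0.0077) higher and SIL1, a nucleotide exchange factor of the ER (-0.61 and 0.025), lower by over 1.5-fold in the ad libitum sample 2. Of 12 prefoldin and tubulin cofactor genes, which pass clients to TRiC or follow it, none was 2-fold apart, and PFDN5 (0.66 and 0.24) was 1.5-fold higher and TBCA (-0.68 and 0.21) and TXNDC9 (-0.79 and 0.31) lower. Of 10 other mitochondrial chaperones and proteases, 2 were 2-fold lower in the ad libitum sample 2 (6.58% of all genes were), the disaggregase CLPB (-1.26 and 0.49) and the protease LONP1 (-1.12 and 0.22), and none was higher. With probe sets averaged, CLPB came to -0.60 and LONP1, with 1 probe set, kept its value, and the median of the 10 went from -0.34 to -0.10.

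In limma fits over all 4 arrays with a term for animal, no member was called for a change common to both animals or for an opposed one at a Benjamini-Hochberg adjusted p of 0.05, with 1 residual degree of freedom, and neither was any of the 9888 genes (0.0% in each fit). At an unadjusted p of 0.05, 3 of 56 members passed for the common change, where 1.82% of all genes did, and 1 passed for the opposed change, where 7.46% did. The 3 were all lower in sample 2 of both animals. DNAJB14 had a mean change of -0.66 ± 0.20 (SE), DNAJB5 of -0.69 ± 0.25 and BAG3 of -0.52 ± 0.20, and each had a limma adjusted p of 1. DNAJB14 had signals of 5.88 and 5.15 (ad libitum) and 6.16 and 5.58 (calorie restriction), with changes of -0.73 and -0.58. No member was 1.5-fold lower in both animals, where 0.748% of all genes were, and DNAJB14 came nearest. The 1 member of the opposed fit was DNAJC24, at -1.06 and 0.28 (limma adjusted p = 0.664).

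Between the animals, no chaperone gene was called. The difference of the animals (calorie restriction minus ad libitum, 2 samples each) had an adjusted p under 0.05 in limma for no member and for none of the 9888 genes (0.0%), and an unadjusted p under 0.05 for 4 of 56 members, where 5.28% of all genes had one. Both calorie restriction samples lay below both ad libitum samples in 15 of 56 members (26.8%, against 18.7% of all genes), among them 5 of 8 TRiC subunits, and above them in 4 (7.14%, against 16.6%). The p-values here take the 2 samples of an animal as its spread and say nothing of the spread among animals on one diet.

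The 4 were DNAJC21, DNAJC17, HSPA2 and HSPD1. DNAJC21, a nuclear protein of ribosome maturation, had signals of 8.38 and 7.998 for the ad libitum pair (samples 1 and 2) and 9.11 and 8.91 for the calorie restriction pair. Both calorie restriction samples were higher, by 0.82 ± 0.23 (SE, limma adjusted p = 0.828), although its other 6 probe sets lay far below the filter, at a mean of 3.60 or less. DNAJC17, a nuclear J protein, had signals of 6.38 and 6.56 (ad libitum) and 5.74 and 5.97 (calorie restriction), lower in both calorie restriction samples, with a difference of -0.62 ± 0.18 (limma adjusted p = 0.828). HSPA2 had 6.02 and 5.58 (ad libitum) and 5.21 and 5.10 (calorie restriction), a difference of -0.65 ± 0.21 (limma adjusted p = 0.861). Both of its calorie restriction signals lay under the level filter, which HSPA2 passed only through the ad libitum samples.

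HSPD1, the mitochondrial chaperonin itself, had both calorie restriction samples below both ad libitum samples, with a difference of -0.56 ± 0.18 (limma adjusted p = 0.879), and its second probe set past the filter ordered the animals the same way. Its partner HSPE1 differed by -0.10 ± 0.21, and its samples overlapped. DNAJB5 had the largest difference of the members, 0.94 ± 0.36 (limma adjusted p = 0.879), with signals of 6.67 and 5.80 (ad libitum) and 7.43 and 6.92 (calorie restriction). HSPB1 differed by -0.64 ± 0.25 (limma adjusted p = 0.879). Without the ad libitum sample 2, DNAJB5 came to 0.51 and HSPB1 to -0.40, while HSPD1 came to -0.62 and DNAJC21 to 0.63. Without the ad libitum sample 1, HSPA2 came to -0.43.

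**Figure D4:**
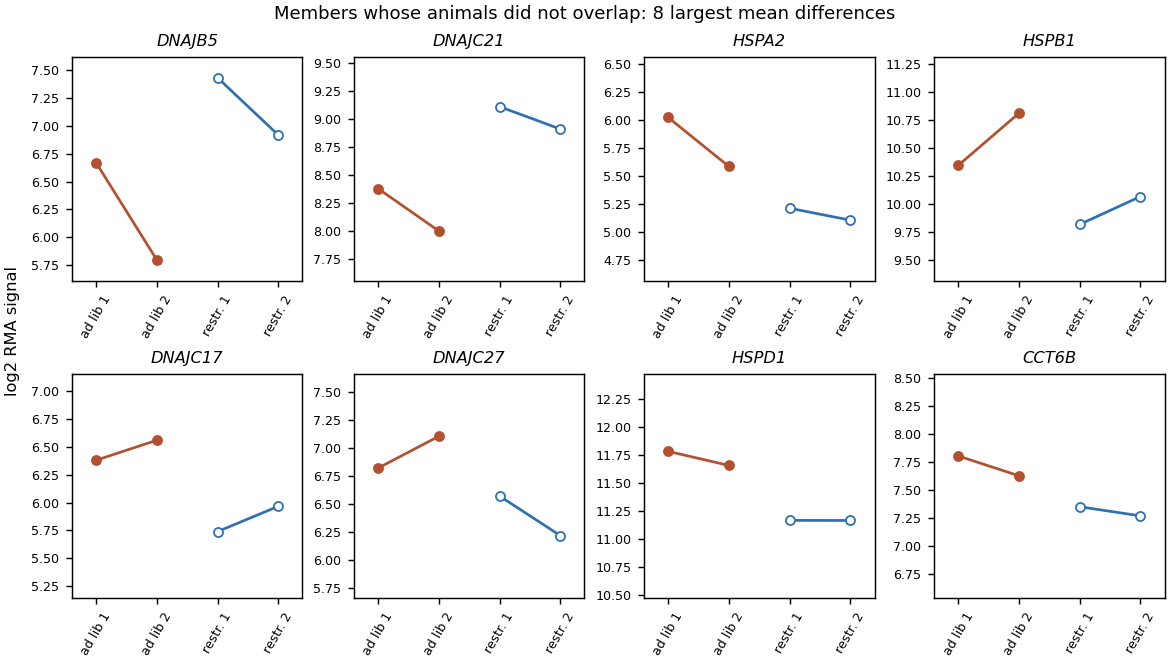
Log2 signal on each array for the 8 members with the largest mean difference among those whose animals did not overlap, with filled points for the ad libitum and open points for the calorie restriction animal; all panels span the same log2 range. DNAJB5 and DNAJC21 are higher in both calorie restriction samples, and the other 6, from HSPA2 (-0.65) to CCT6B (-0.41), are lower.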

How the data were processed

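The authors deposited log2 signals for each probe set of a human array, obtained from 4 luteal RNA samples with RMA in Affymetrix Power Tools, per the submitters' processing notes, without a version. Having only 4 arrays limits precision. Vervet RNA was read with probes of a human array, and the part of sequence mismatch in dim or disagreeing probe sets was not tested.

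Probe sets with 1 gene symbol in the platform annotation (41091 of 54675, without 62 controls) were used, and those with several (1801) or none (11721) were not. Each gene was read from its brightest probe set by mean signal. Genes under the median of these means (log2 5.26) were left out of fits and of counts, except that counts and medians of the marker, target and partner lists are over all measured genes unless stated. Of the 77 protein coding members, 75 matched a RefSeq vervet symbol or synonym. Signals of different genes are not compared, since probes differ in brightness, and near-identical genes can share signal.

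Common, opposed and between-animal differences were fitted with limma 3.58.1 in R 4.3.3 (lmFit, eBayes with a trend on signal, Benjamini-Hochberg over 9888 genes), with 1, 1 and 2 residual degrees of freedom, and the code was tested on simulated data. Alternatives were other level filters, the mean of all probe sets, probe sets without the suffixes _x_at and _s_at, cyclic loess, a 1.5-fold threshold, no trend, sample number as a block, and leaving out each array. Members named with values were the stress-inducible list, all past the filter outside the DNAJ families, and DNAJ members by size of change or class. Others named, and genes of the partner lists short of 2-fold, were chosen after their values were seen. The members and gene lists were chosen with earlier results of these data known. Sequences were not analysed here, so planned searches of promoters and proteins were not run.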

Additional observations from a re-analysis of the deposited data

How the results depend on the processing

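The number of members 2-fold lower in the ad libitum sample 2 (3) came to 1 when probe sets were averaged, to 8 with the 1.5-fold threshold, and to 3 or 4 under the other level filters, cyclic loess and without the _x_at and _s_at probe sets. The members' median there (-0.14) was -0.034 without the _x_at and _s_at probe sets, which left 43 members past the filter, and -0.083 to -0.12 under the others. Counts of 0 for 2-fold changes in the calorie restriction animal and for 2-fold increases in the ad libitum animal stayed 0 under every alternative run. Of the 112 changes of the 56 members, all stayed within 0.5 of those given with cyclic loess, and 110 did with averaged probe sets. The exceptions were DNAJB14 (-0.21) and DNAJC24 (-0.12) in the ad libitum animal. With averaged probe sets, 22 list medians stayed within 0.1 and 10 did not.

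No member was called in any limma fit under any alternative run, leaving out any 1 array included (0 in all 4). Each of those fits leaves an arm of 1 sample, which is assumed to vary like the other animal's pair, so their counts are given only as values. At an unadjusted p of 0.05, 12 members passed for the difference between animals without the ad libitum sample 1, 6 without its sample 2 and 0 without either calorie restriction sample. Without the ad libitum sample 1, 474 of all 9888 genes were called, where 0 were with all arrays. With sample number as a replicate block, 0 members were called (4 at an unadjusted p of 0.05). Same-numbered samples of the animals deviated in opposite ways over 9888 genes (Pearson r = -0.27), and with the numbers crossed, an alternative added after seeing the data, 0 were called (5 at an unadjusted p of 0.05). The labels tie same-numbered samples by nothing but the number.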

Other observations

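Probe sets annotated to more than 1 gene belong to no comparison above, and their signal cannot be given to either gene. Of the 2 probe sets joined to HSPA1A and HSPA1B, the genes that encode the main heat-inducible HSP70, the brighter had log2 signals of 6.79 and 7.74 for the ad libitum pair and 6.81 and 6.41 for the calorie restriction pair. Its changes were 0.95 and -0.40, and the ad libitum sample 2 was the high array. The other, with signals under the level filter, gave -0.24 in the ad libitum animal and even signals in the other. A probe set that also names HSPA1L gave 0.51 and -0.22.

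The 4 probe sets annotated to HSPA8, the constitutive HSP70, together with small nucleolar RNAs within it had the opposite pair of signs. They lay between -0.70 and -0.49 in the ad libitum animal and between 0.047 and 0.20 in the calorie restriction animal. The 3 probe sets annotated to TCP1, a TRiC subunit, with a small nucleolar RNA gave -0.28, -0.013 and -0.11 within the ad libitum animal and 0.21, 0.18 and -0.43 within the other, the last from the dimmest of the 3. DNAJB6 shares its 2 brightest probe sets with TMEM135 in the annotation, and they gave -0.32 and 0.23 within the ad libitum animal. None of these changes has a replicate or a test.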
